A study of Drosophila melanogaster with 24 samples.

Results

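The comparison described here is the change in the dmyc over cd2 expression ratio of Drosophila melanogaster wing discs between 24 and 48 h after clone induction. It takes the 6 two-colour arrays titled for 48 h against the 6 titled for 24 h, 12 of the 24 arrays of the series. The members were chosen by the time in the array titles alone. The wing disc is the larval epithelial sac that forms the adult wing, and the larvae were in the third instar. On each array, RNA of tub>dmyc>Gal4 discs was set against RNA of tub>cd2>Gal4 control discs of the same time. In tub>dmyc>Gal4, the ubiquitous tubulin promoter drives dmyc, the fly Myc gene, from a cassette that recombination can remove, and tub>cd2>Gal4 carries cd2 in that place. Both genotypes received the same short heat shock, so both contain cells with and without the cassette, and GFP marks the cells that lost it. Each disc RNA is therefore a mixture of both kinds of cell. The dmyc RNA carried Cy5 on replicates 1 to 3 of a time and Cy3 on replicates 4 to 6.

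Cell competition is the elimination of viable cells by fitter neighbours. Myc is a transcription factor that drives ribosome production and growth, and cells with less of it than their neighbours are lost from the wing disc. Among the genes known to take part are flower (fwe), whose membrane protein isoforms mark winners and losers, SPARC, a secreted protein that protects losers, and azot, a calcium-binding protein expressed in losers before they die. The JNK kinase pathway and apoptosis genes are known to act in loser cells.

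Every value below is a log2 ratio on the deposited scale, where a positive number likely means more RNA in the dmyc discs. That direction rests on the order of the names in the array titles. The log base is not stated and was taken as 2. The change is the 48 h ratio minus the 24 h ratio, given with its standard error (SE). A feature is an array probe, or the mean of the probes of a gene, and 10661 features were tested, 8815 of them named. Array medians lay between -0.01 and 0.008 and array SDs between 0.18 and 0.291. Myc itself was not analysed here, so the transgene could not be used to check the labels. The values are ratios, so the presence of wing disc markers in the RNA cannot be read from them. The labels do not say which arrays came from separate discs. Each array was compared only with the arrays of opposite dye at its time, so the opposite dye of a match was set by the search. At both times every best match was mutual. These dye-swap partners were replicates 1 and 5, 2 and 6, and 3 and 4 at 24 h, and replicates 1 and 4, 2 and 5, and 3 and 6 at 48 h, with correlations across features between 0.579 and 0.898. Partner pairs were a random block in the fit, so the 12 arrays stand closer to 3 pairs against 3 pairs than to 6 samples against 6. Whether partners share an RNA extract is not stated.

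Between 24 and 48 h, 2 of the 10661 features changed past an adjusted p of 0.05 in limma. Both were named genes that rose. They are Ttd14, known for its role in moving the TRPL channel within photoreceptor cells, and puc, the JNK phosphatase that is both a target and an inhibitor of the pathway. The features past the threshold made up 0.0188% of those tested in the higher direction and 0.0% in the lower direction. At an unadjusted p under 0.05, 324 features (3.04%) were higher at 48 h and 390 (3.66%) were lower, 714 in all or 6.7%. The median change over all features was -0.0005, with quartiles of -0.061 and 0.062. The median SE of a change was 0.0882, and the 95% interval of a change reached 0.183 to either side in the median feature.

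Ttd14 lay between -0.183 and 0.134 on the 24 h arrays, with a median of 0.01. At 48 h its ratio lay between 0.385 and 0.634, with a median of 0.52. The 48 h arrays all lay above the 24 h arrays, and the 48 h partner pairs were at 0.60, 0.49 and 0.43. The change was 0.51 ± 0.073 (SE, 95% interval 0.357 to 0.662), with an adjusted p of 0.00561 in limma. The fitted ratio of Ttd14 was 0.23 at 0 h and 0.07 at 12 h, so the 48 h value was the highest of the 4 times. The call was lost without the 48 h pair of replicates 1 and 4 (adjusted p 0.233), in a fit of the 24 and 48 h arrays alone (0.45), with partners averaged (0.112) and with a robust fit with trend (0.242). The change kept its direction in all of these.

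For puc, the 24 h arrays ran from -0.332 to 0.011 with a median of -0.08. The 48 h arrays ran from 0.076 to 0.428 with a median of 0.30. No 24 h array reached the lowest 48 h array, and the 48 h pairs were at 0.37, 0.22 and 0.21. The rise was 0.39 ± 0.063 (SE, 95% interval 0.257 to 0.519), with an adjusted p of 0.0176 in limma. Leaving out the 48 h pair of replicates 1 and 4 gave an adjusted p of 0.347, and leaving out 24 h pairs 2 and 6 or 3 and 4, or 48 h pair 2 and 5, gave 0.0746, 0.0669 and 0.0887. Leaving out 1 array also took it over 0.05: 0.052 without 24 h replicate 3, and 0.0794, 0.0642 and 0.0588 without 48 h replicates 1, 4 and 6. A fit without the dye coefficient gave 0.228, partners averaged 0.676, and the 24 and 48 h arrays alone 0.45.

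The JNK pathway had 11 measured genes on the list used here, and puc was the member past the threshold. The median change of the list was -0.05, against -0.0005 for all features. Traf6, an adaptor of the pathway's tumour necrosis factor branch, had a change of 0.23 ± 0.085 and kay, the fly Fos transcription factor, one of -0.18 ± 0.082, each with an unadjusted p under 0.05. The kinase bsk, which is the fly JNK, differed by -0.08 ± 0.052, and hep, the kinase that activates it, by -0.06 ± 0.065. Of the 11 members, 4 had a change above 0 and 7 below. Of 11 apoptosis genes, 1 was higher at an unadjusted p under 0.05, against 3.04% of all features. It was Dcp-1, an effector caspase, at 0.21 ± 0.094 (unadjusted p 0.0396 in limma), and the median of the list was 0.01.

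**Figure D1:**
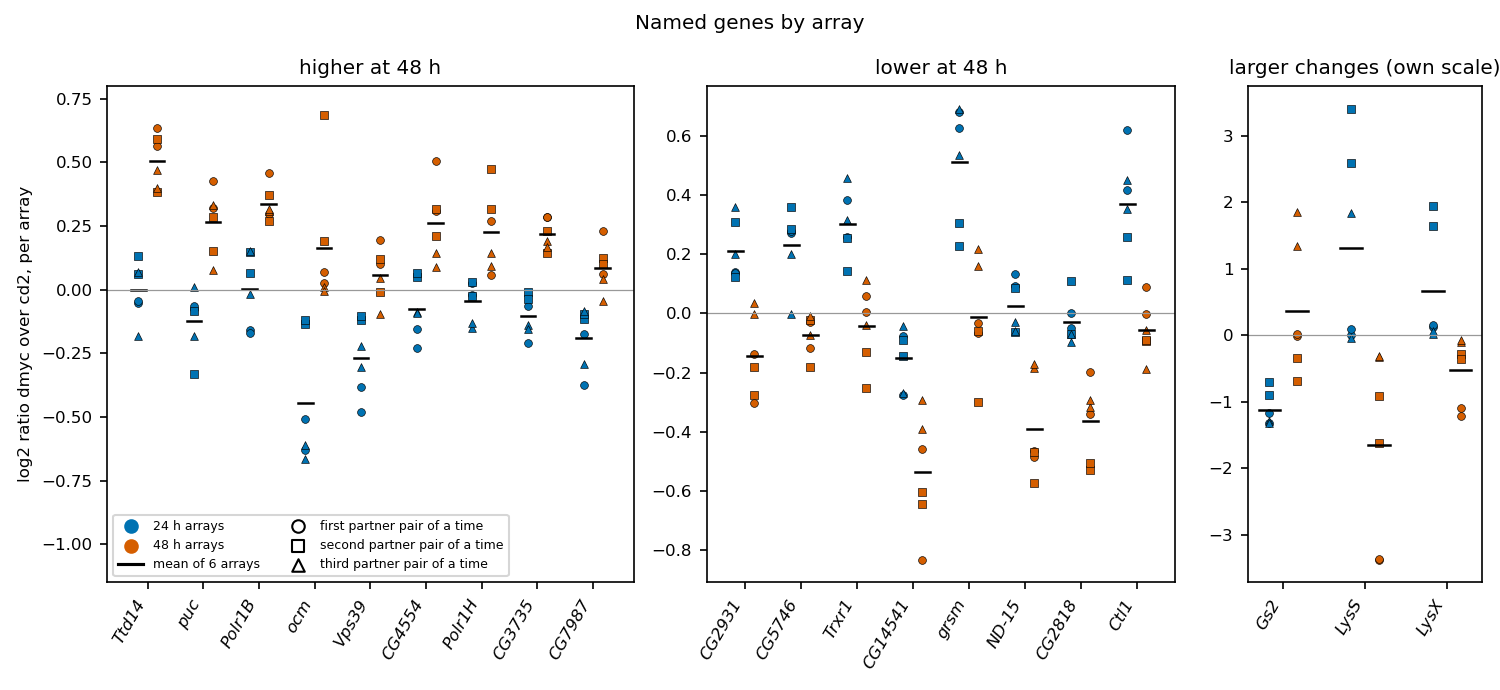
Log2 ratio dmyc over cd2 on each 24 h array (blue) and 48 h array (orange) for the 20 genes named by rule, with bars at the mean of 6 arrays and marker shapes for the partner pairs of a time. Gs2, LysS and LysX have their own scale. By the rule no gene overlaps between the times, and Ttd14 and puc are the 2 past the adjusted threshold.

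Beside Ttd14 and puc, the features whose 24 h and 48 h values did not overlap numbered 28 higher at 48 h (0.263% of those tested, with both genes among them) and 55 lower (0.516%). The named-gene rule took the 10 of lowest p in each direction, and the other 18 did not pass the threshold, so their values are given as differences only. They were picked for their separation, so no overlap in them is a result. The plot of named genes by array shows their values.

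RNA polymerase I, the enzyme that makes the precursor of ribosomal RNA, supplied a pair of the differences higher at 48 h. Polr1B, its second largest subunit, ran from -0.169 to 0.152 at 24 h (median 0.02) and from 0.268 to 0.459 at 48 h (median 0.31). The 48 h arrays were tightly grouped, and the 24 h pair of replicates 1 and 5 was the lowest at -0.16. The change was 0.33 ± 0.073 with an adjusted p of 0.256 in limma. Without the partner block its adjusted p was 0.0294, and leaving out a pair gave adjusted p values between 0.0746 and 0.626. Polr1H, another subunit of the enzyme, ran from -0.152 to 0.03 at 24 h and from 0.059 to 0.472 at 48 h, with a change of 0.27 ± 0.070 and an adjusted p of 0.399.

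The nucleolar ribosome biogenesis list, which holds Polr1B and other polymerase I subunits, but not Polr1H, and processing factors, had 26 measured members. None passed the threshold for the change. At an unadjusted p under 0.05, 6 were higher, against 3.04% of all features, and 0 were lower, against 3.66%. The median change of the list was 0.10, and 18 of 26 members had a change above 0, against 49.7% of all features. The 6 were Polr1B, Gar1, a component of the box H/ACA small nucleolar ribonucleoproteins, Polr1A, the largest polymerase I subunit, and Surf6, Mat89Ba and mbm. Gar1 differed by 0.49 ± 0.191, Surf6 by 0.27 ± 0.098 and Polr1A by 0.26 ± 0.104. Against this, Tif-IA, an initiation factor of the polymerase, differed by -0.10 ± 0.152 and Fib, the fibrillarin methyltransferase, by 0.04 ± 0.150.

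At 24 h the list's members had a median ratio of 0.15, and none was past the threshold. At 48 h the median was 0.22, and 7 members were past it, all higher in dmyc discs, where 0.929% of all features were called higher (0.619% at 24 h). Without the 48 h pair of replicates 1 and 4, or that of 2 and 5, 3 members were past it at 48 h. A call at 48 h and none at 24 h is not a test of the change, which no member passed. The mean of the list lay between 0.065 and 0.236 on the 24 h arrays and between 0.202 and 0.282 on the 48 h arrays. By pair it was 0.078, 0.171 and 0.222 at 24 h and 0.261, 0.268 and 0.234 at 48 h. The 24 h pair of replicates 1 and 5 was the lowest of the 6 pairs. That pair also had the highest fat body list mean at 24 h, 0.808, and its part in the nucleolar difference was not tested. Cytoplasmic ribosomal protein genes, with 32 measured members, had a median change of -0.09. Of them, 3 (RpS15, RpL17 and RpS19b) were lower at an unadjusted p under 0.05, against 3.66% of all features. The 61 mitochondrial ribosomal protein genes had a median of 0.02, the 40 translation factors of -0.02, and the 23 aminoacyl-tRNA synthetases of 0.01.

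Other genes higher at 48 h by the rule were ocm, Vps39, CG4554, Gs2, CG3735 and CG7987. Gs2, a glutamine synthetase that joins ammonia to glutamate, had the largest difference of these. It ran from -1.326 to -0.704 at 24 h with a median of -1.23 and from -0.683 to 1.852 at 48 h with a median of 0.01. The 24 h arrays were all low, while the 48 h pairs lay far apart at 0.01, -0.51 and 1.60. The change was 1.48 ± 0.377 (95% interval 0.701 to 2.267), with an adjusted p of 0.373 in limma. At 24 h its ratio was past the threshold on its own, -1.12 with an adjusted p of 0.0371, and at 48 h it was 0.37 (0.64). Vps39, a subunit of the HOPS tethering complex of late endosomes and lysosomes, lay between -0.479 and -0.103 at 24 h and between -0.095 and 0.196 at 48 h, and its change was 0.33 ± 0.080 (adjusted p 0.299).

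The largest difference in the lower direction was that of LysS, a digestive lysozyme of the larval gut. It ran from -0.043 to 3.414 at 24 h with a median of 0.97. At 48 h it ran from -3.38 to -0.313 with a median of -1.27. The pairs did not agree in size at either time, with 0.05, 3.00 and 0.90 at 24 h and -3.37, -1.27 and -0.32 at 48 h. The 0.90 is the mean of partners that differed, 1.835 on replicate 3 and -0.043 on replicate 4. The change was -2.97 ± 0.628 (95% interval -4.273 to -1.671), with an adjusted p of 0.256 in limma, and leaving out a pair gave adjusted p values between 0.0254 and 0.786. The SD across arrays was 1.505 at 24 h and 1.413 at 48 h, so that interval may be too narrow. LysX, a related lysozyme, ran from 0.022 to 1.95 at 24 h and from -1.218 to -0.071 at 48 h, with a change of -1.19 ± 0.283 (adjusted p 0.299). LysE, not named by the rule, differed by -2.68 ± 0.608.

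These lysozyme genes lie in 1 cluster. In the RefSeq gene order of the Release 6 plus ISO1 MT assembly, 1 coding gene, LysP, lies between LysE and LysS, and 8 lie between LysS and LysX. Near-identical members of the family can share hybridisation signal, so which lysozyme gives each value is uncertain. Of the 14 measured genes on the midgut and digestion list, 13 had a change below 0, and 9 were lower at an unadjusted p under 0.05, against 3.66% of all features. None passed the adjusted threshold, and the median change was -0.81. The serine proteases of the list included Jon65Aiv (-1.61 ± 0.474), epsilonTry (-0.69 ± 0.273) and Jon74E (-0.93 ± 0.265).

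The midgut list mean by pair was 0.064, 1.192 and 0.008 at 24 h, and -1.136, -0.265 and -0.073 at 48 h. The difference between the times thus sat mainly in the 24 h pair of replicates 2 and 6 and the 48 h pair of replicates 1 and 4. The other pairs of a time lay between -0.265 and 0.064. In RNA of whole disc preparations, the share of a cell type, whatever its source, cannot be told apart from its RNA per cell. The midgut, fat body, hemocyte and salivary gland lists hold markers of tissues that a dissected disc preparation could contain. Whether such tissue was in the RNA was not tested. The plot of list means by array shows the midgut means beside those of 5 other lists. LysE was at 2.83 in the 24 h pair of replicates 2 and 6 and at -3.41 in the 48 h pair of replicates 1 and 4.

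**Figure D2:**
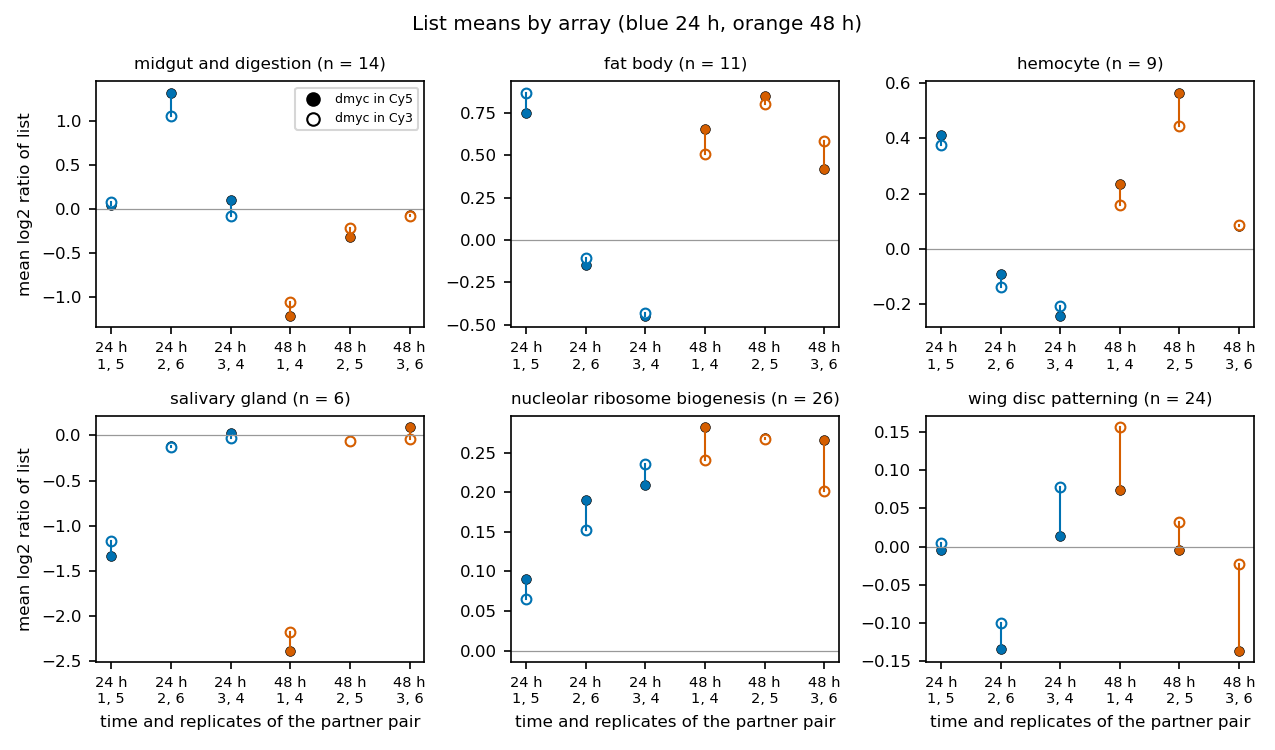
Mean log2 ratio of 6 gene lists on each array, by partner pair (filled, dmyc in Cy5 and open, dmyc in Cy3), 24 h in blue and 48 h in orange. The midgut list stands at 1.192 in the 24 h pair of replicates 2 and 6 and at -1.136 in the 48 h pair of replicates 1 and 4, and the partners of a pair lie close together in the midgut, fat body and salivary gland lists.

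Fat body, the larval storage and metabolic tissue, had 11 measured genes on its list, and 7 others, among them the Lsp storage proteins, were not analysed. None passed the threshold for the change. At an unadjusted p under 0.05, 3 were higher, against 3.04% of all features. Of the 11 genes, 9 had a change above 0, against 49.7% of all features. The median change was 0.11, the largest that of Fbp2 at 2.38 ± 0.907, and Pepck1, a gluconeogenesis enzyme, and Adh, alcohol dehydrogenase, differed by 1.11 ± 0.351 and 1.03 ± 0.494. The array means ran from -0.447 to 0.869 at 24 h and from 0.42 to 0.848 at 48 h, so the times overlapped. The 24 h pairs were at 0.808, -0.127 and -0.44, and the 48 h pairs at 0.581, 0.826 and 0.503. The 24 h pair of replicates 1 and 5 thus lay within the range of the 48 h pairs.

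The 9 genes of the hemocyte list gave a median change of 0.03, and the clotting protein gene fon on it differed by 1.73 ± 0.718. The 6 salivary gland genes had a median of -0.27, and 6 of 6 were below 0. By pair the list mean was -1.251, -0.125 and -0.002 at 24 h and -2.28, -0.061 and 0.025 at 48 h, so 1 pair of each time set it. Without the 48 h pair of replicates 1 and 4 the median change was 0.21, and over all alternatives it ran from -0.55 to 0.21. Sgs5, a glue protein, lay at -4.09 in the 24 h pair of replicates 1 and 5 and at -6.62 in the 48 h pair of replicates 1 and 4, with -0.52 to 0.18 in the other pairs. The part of these lists in the differences of other genes was not tested.

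Trxr1, which encodes thioredoxin reductase, an enzyme that keeps thioredoxin and glutathione reduced in flies, stood at 0.143 to 0.456 at 24 h (median 0.29) and -0.253 to 0.113 at 48 h (median -0.02). Its change was -0.34 ± 0.082 (adjusted p 0.299), and it had been past the threshold at 24 h, at 0.30 with an adjusted p of 0.0188. The aminopeptidase grsm stood at 0.229 to 0.692 at 24 h and -0.3 to 0.219 at 48 h, with a change of -0.53 ± 0.139. ND-15, a subunit of mitochondrial complex I, went from between -0.063 and 0.132 to between -0.572 and -0.17, a difference of -0.42 ± 0.112. Ctl1, a choline transporter-like gene, had a difference of -0.43 ± 0.120, and CG2931, CG5746, CG14541 and CG2818 lay between -0.30 and -0.39. The plot of courses over the 4 times shows that Trxr1 and grsm had negative ratios at 0 h, -0.25 and -0.39, before the positive ones at 24 h.

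**Figure D3:**
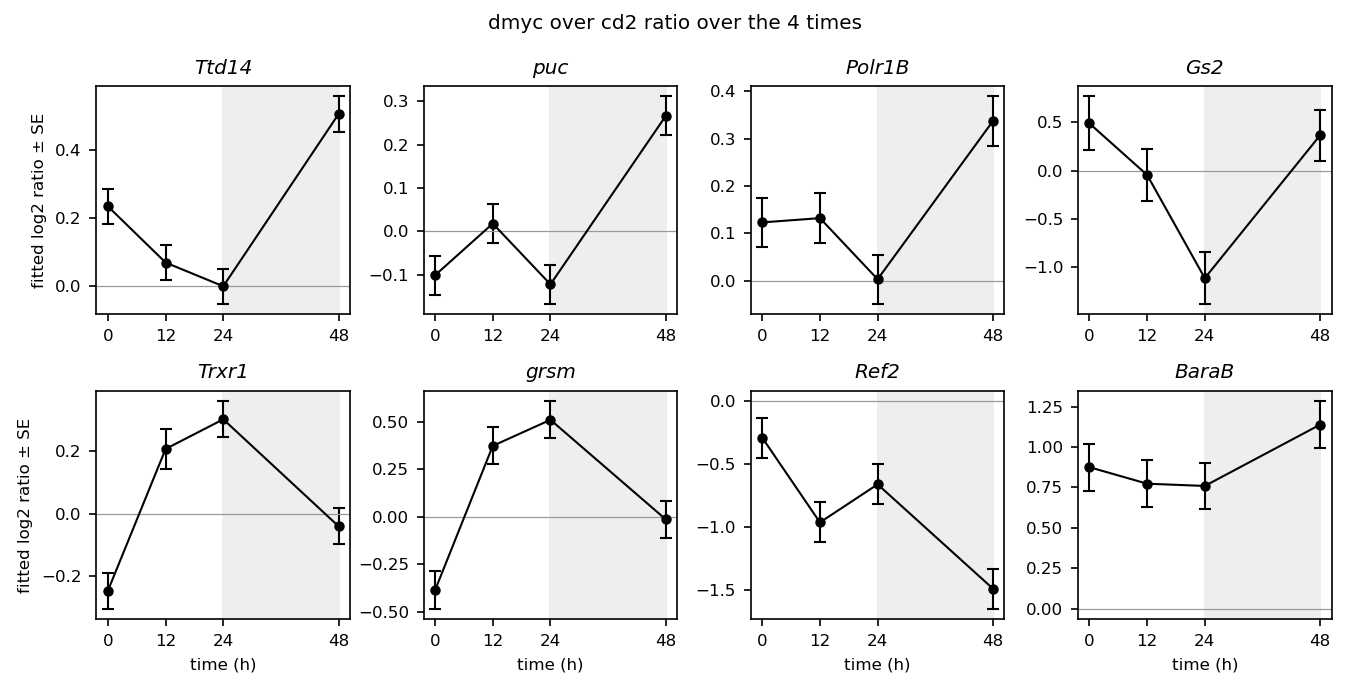
Fitted log2 ratio dmyc over cd2 ± SE at 0, 12, 24 and 48 h for 8 genes, each with its own axis and the 24 to 48 h interval shaded. Ttd14, puc, Polr1B and Gs2 are higher at 48 h than at 24 h, Trxr1, grsm and Ref2 are lower, and BaraB stays above 0 throughout.

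Trxr1 belongs to the glutathione transferase and antioxidant list, of which 42 genes were measured. None passed the threshold. At an unadjusted p under 0.05, 6 were lower, against 3.66% of all features, and 1 was higher, against 3.04%. The median change was 0.003. GstO3 differed by -0.36 ± 0.105, and GstO2 by 0.29 ± 0.139. ND-15 belongs to the 65 oxidative phosphorylation genes, which had a median of -0.002. At an unadjusted p under 0.05, 4 of them were higher, against 3.04% of all features, and 5 were lower, against 3.66%.

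The cytoskeleton list of tubulin, actin and actin-binding genes had 15 measured members, of which 3 were above 0, against 49.7% of all features, and 5 lower at an unadjusted p under 0.05, against 3.66%. Its median change was -0.19. Act79B, a muscle actin, differed by -0.91 ± 0.321, Act87E by -0.71 ± 0.256 and alphaTub84D, an alpha tubulin, by -0.39 ± 0.161. The array mean of the list ran from -0.044 to 0.295 at 24 h and from -0.259 to -0.064 at 48 h. The actin genes are near-identical in their coding sequence, so their values may not be separate measurements. Act88F, also on the list, differed by -0.002 ± 0.083, unlike Act79B and Act87E. The muscle list as a whole, which shares Act79B, Act87E and Act88F with it, had a median of -0.04.

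Of the 12 heat shock and chaperone genes measured, 11 had a change above 0, against 49.7% of all features, and the median was 0.13. Another 12 genes of the list were not analysed. The list mean by pair was -0.066, 0.059 and 0.134 at 24 h and 0.001, 0.283 and 0.376 at 48 h, so the times overlapped. DnaJ-1, a co-chaperone of Hsp70 that heat induces, lay between 0.171 and 0.368 at 24 h and between 0.373 and 1.352 at 48 h, with a change of 0.60 ± 0.195 (adjusted p 0.523). It was past the threshold at 48 h on its own, at 0.86 with an adjusted p of 0.00115. The DnaJ-1 ratio was also past it at 12 h, at 0.86 with an adjusted p of 0.00329 in limma. Hsp26 stood at 0.53 and 0.56, with a 95% interval of the change from -0.351 to 0.403. Serpins, protease inhibitors that limit proteolytic cascades, had 6 of 20 members lower at an unadjusted p under 0.05, against 3.66% of all features, among them Spn43Aa at -0.77 ± 0.239. The median of the list was -0.04, and 8 members had a change above 0. Of the 82 cuticle protein genes, 10 were lower and 0 higher at that level, against 3.66% and 3.04% of all features, with a median of -0.04.

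**Figure D4:**
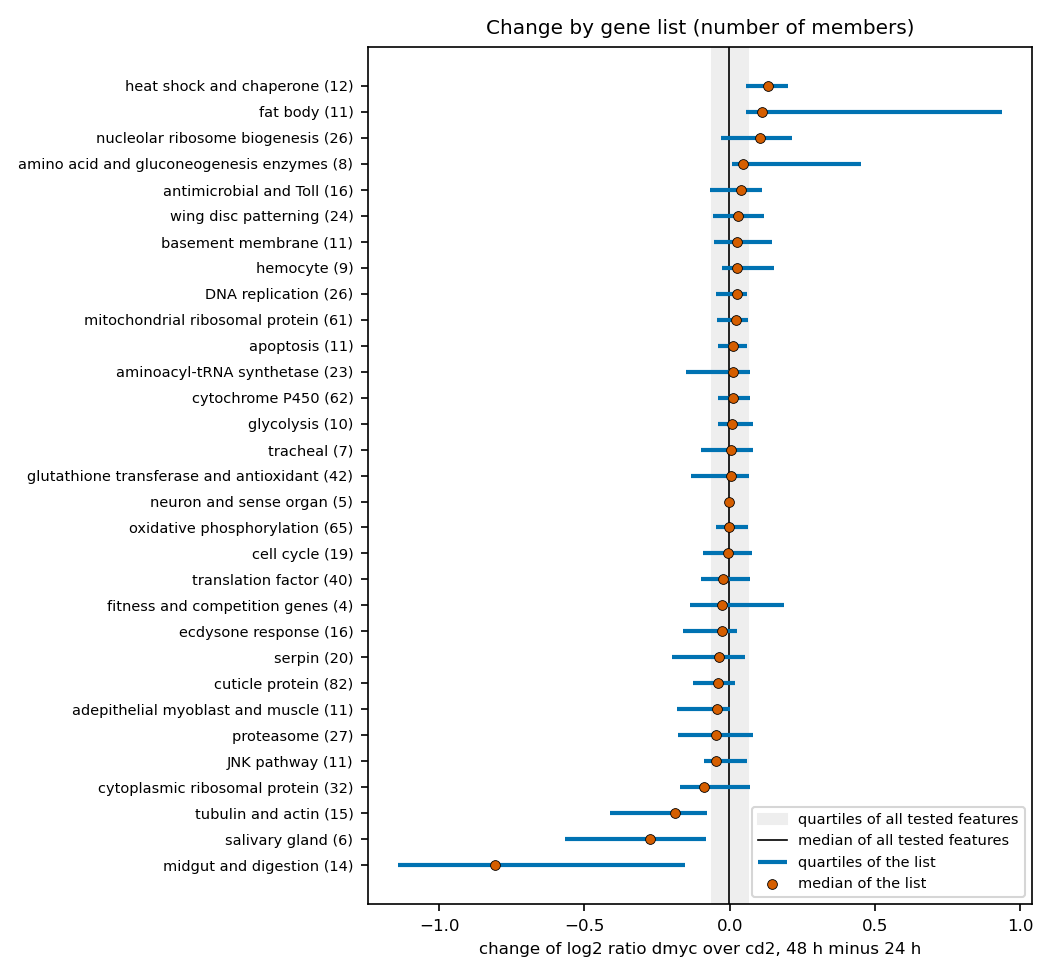
Median change from 24 to 48 h (points) and quartiles (bars) of 31 gene lists, on the log2 scale, over the quartiles of all tested features (grey band) and their median (line). The midgut list, at -0.81, and the salivary gland and cytoskeleton lists lie lowest, and the heat shock, fat body and nucleolar lists highest.

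The medians of the remaining lists lay close to that of all features. The 24 wing disc patterning genes had a median change of 0.03, with 0 of them past an unadjusted p of 0.05 in either direction. Among them vg, a selector of wing identity, differed by 0.24 ± 0.136 and nub, a wing pouch factor, by -0.13 ± 0.074. The 26 DNA replication genes had a median of 0.03 and the 62 cytochrome P450 genes one of 0.01, both with none past that level. Cell cycle (19 genes, -0.01), glycolysis (10, 0.01) and proteasome (27, -0.05) had medians of similar size. Ecdysone response genes (16) had a median of -0.03. Of them, 3 were lower at an unadjusted p under 0.05, against 3.66% of all features. Among the 3 was the nuclear receptor gene Eip78C at -0.25 ± 0.106. The neuron (5), tracheal (7), basement membrane (11), antimicrobial and Toll (16) and amino acid and gluconeogenesis (8) lists had medians between -0.002 and 0.05.

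Genes known from cell competition did not pass the test for a change. The azot ratio ran from -0.48 to 0.7 at 24 h (median -0.13) and from -0.06 to 1.227 at 48 h (median 0.62), and the times overlapped. Its change was 0.57 ± 0.194 (95% interval 0.17 to 0.977), with an adjusted p of 0.535 in limma. At 48 h the ratio itself was past the threshold, at 0.60 with an adjusted p of 0.0227, and at 24 h it was 0.03 (0.957). By pair azot was at 0.587, -0.354 and -0.154 at 24 h and at 0.675, 0.96 and 0.164 at 48 h. The 24 h pair of replicates 1 and 5, at 0.587, thus lay within the range of the 48 h pairs. Leaving out a pair gave adjusted p values of the change between 0.0742 and 1.

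The fwe ratio ran from -0.142 to 0.486 on 5 measured 24 h arrays and from -0.34 to 0.316 on 6 at 48 h, and the times overlapped. Its change was -0.22 ± 0.129 (95% interval -0.491 to 0.046, adjusted p 0.823). The gene had 1 feature, and which of its isoforms that feature detects is not known here. SPARC ran from -0.166 to 0.418 at 24 h and from -0.394 to 0.183 at 48 h, with a change of -0.11 ± 0.115 (95% interval -0.348 to 0.129, adjusted p 0.954). The sign of the SPARC change turned without the 24 h pair of replicates 1 and 5 (0.05) and without the 48 h pair of replicates 2 and 5 (0.03).

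The levels from which and to which ratios moved were also tested. At 24 h, 66 features (0.619%) were higher in dmyc discs and 106 (0.994%) lower past an adjusted p of 0.05, 172 in all. At 48 h the counts were 99 (0.929%) and 105 (0.985%), 204 in all. The 2 sets shared 19 features, 11% of the 24 h set and 9.31% of the 48 h set. All 19 had the same sign at both times, 5 higher and 14 lower. The 24 h set had the same sign at 48 h for 87.8% of its members and the 48 h set at 24 h for 90.7%, against 64.9% of all features. Members of the 24 h set, chosen for their 24 h values, had a median absolute ratio of 0.326 then and 0.107 at 48 h, and those of the 48 h set 0.151 at 24 h and 0.36 at 48 h.

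The 24 h count rests on 1 pair: without the pair of replicates 1 and 5 it was 0, and without replicate 5 alone it was 1. It was 51 without replicates 3 and 4, 79 without replicate 3, 87 without replicate 1, 110 without replicate 4 and 109 without replicate 6. The 48 h count was 47 without the 48 h pair of replicates 2 and 5 and 136 without 48 h pair 1 and 4, and it was 352 without 24 h pair 1 and 5.

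Of the 19 shared features 14 were named genes. Ref2, a relative of the mRNA export adaptor Ref1, ran from -0.974 to -0.437 at 24 h and from -2.233 to -0.773 at 48 h. Its change of -0.83 ± 0.225 did not pass (adjusted p 0.425). The serine protease gene grass, which acts upstream of Toll in defence, stood at -0.40 and -0.76, and its arrays of the 2 times did not overlap. Fer1HCH, the ferritin heavy chain that stores iron, stood at -0.34 and -0.33, and hfp, a splicing factor known to restrain Myc expression in the fly, at -0.32 and -0.31. For these 2 genes the 95% interval of the change was -0.163 to 0.183 and -0.177 to 0.196.

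Among the 5 higher at both times, BaraB, of the Baramicin family, stood at 0.76 and 1.14. SpdS, which makes the polyamine spermidine, stood at 0.32 at both times, and its array values ran from 0.225 to 0.44 at 24 h and from 0.208 to 0.46 at 48 h. The others were Tailor, a terminal uridylyltransferase, Hsp26 and CG7099. CG5986, CG34159, Dlip2, GstD3 and Cyp317a1 were lower at both times, with changes between -0.04 and 0.01.

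**Figure D5:**
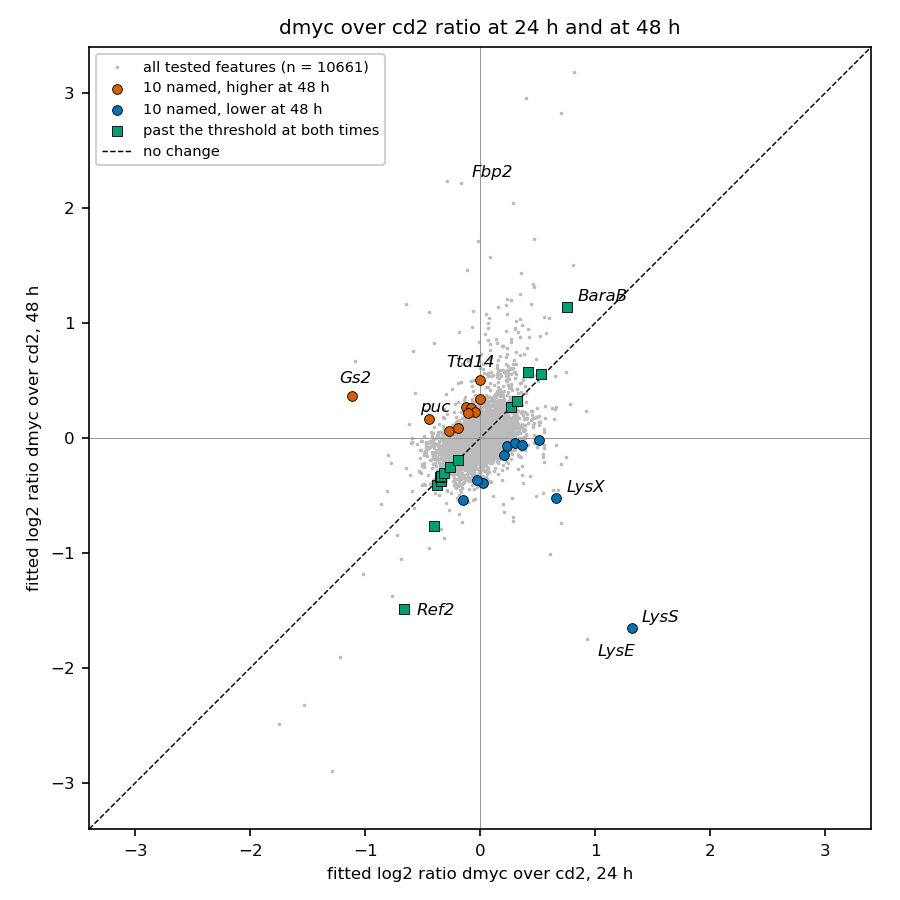
Fitted log2 ratio at 48 h against that at 24 h for 10661 features (grey), with the 20 genes named by rule and the 14 named genes past the threshold at both times marked. Most features lie near the origin, and LysS and LysE lie farthest below the dashed line of no change.

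Changes above 1 in size were seen in 31 features, 21 higher and 10 lower at 48 h, 16 and 6 of them named. None passed the threshold, and 5 of the lower ones were on the midgut list and 3 of the higher ones on the fat body list. The odorant-binding protein gene Obp99b had a change of 2.52 ± 1.023 and the detoxification gene Cyp6g1 one of 1.53 ± 0.796, with SDs across the 48 h arrays of 2.225 and 2.165.

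Across features, the pair means of all genes correlated at 0.057 to 0.2 within 24 h (median 0.078 of 3) and at 0.155 to 0.415 within 48 h (median 0.155 of 3). Between the times the 9 correlations ran from -0.203 to 0.532, with a median of 0.148. The 24 h pair of replicates 1 and 5 correlated with the 48 h pairs of replicates 2 and 5 and of 1 and 4 at 0.532 and 0.527. These correlations describe features, which are not independent of each other.

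Without the partner block, 6 features were called higher (0.0563%) and 4 lower (0.0375%). Beyond Ttd14, puc, Polr1B and CG3735, the higher ones were l(2)k09022, with a change of 0.50 ± 0.097, and Ntf-2, a nuclear import factor, with one of 0.50 ± 0.120. With the block these had adjusted p values of 0.145 and 0.299. The 4 lower ones were LysS, CG5746 and Trxr1, with adjusted p values of 0.0494, 0.0429 and 0.0494 without the block, and 1 unnamed feature.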

How the data were processed

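Total RNA was amplified in 2 rounds, labelled with Cy5 or Cy3 and hybridised, per the labels' protocols. The deposited values are ratios on a log scale, taken as log2. They are centred near 0, and the sources used here do not state how the authors corrected background, normalized or filtered them. Signal over background is not part of these values, so the precision behind a single feature is known from the arrays alone.

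Of 12359 features, 169 at inferred control positions were left out. The platform annotation gave 10289 features 1 gene, 56 several and 1845 none, and 9896 matched the RefSeq gene table. Arrays were centred on their medians, features of a gene averaged, and 4 of 6 values required at each time, which left 10661 features with 1.581% of values missing. The fit (limma 3.58.1, statmod 1.5.0, R 4.3.3) held all 24 arrays, a coefficient per time and 1 for dye, with partner pairs as a random block (duplicateCorrelation, 0.443). P-values were adjusted by Benjamini-Hochberg over all features, with a threshold of 0.05. The changes of both dye orientations correlated at 0.676 across features, so no array was turned.

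Named genes were to be the 12 largest rises and falls past the threshold without overlap between times, with up to 4 members of any list with 3 or more past it, and fwe, azot and SPARC. With fewer than 5 passing in a direction, the 10 of lowest p without overlap were named. Genes past the threshold at both times, and list members given as examples, were named after their values were seen. The comparison, the gene lists and the partner block were chosen with earlier results of these data known, and lists are described by counts and medians.

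In data simulated for 48 h minus 24 h over 10661 features, the fit recovered 78% of 100 features changed by 0.5 and 97% of 100 changed by 1, with 13 false calls. The simulated errors were normal, with the 1 partner correlation of 0.443 in every feature, as the fit assumes, and 200 features were changed. These rates hold for that setting only, and recovery in the measured arrays was not tested. Of the unchanged features, 4.99% had an unadjusted p under 0.05 with the partner block and 10.7% without it.

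Alternatives were centring, scaling, quantile normalization, complete features, no minimum, dye terms, a replicate block, no partner block, averaged partners, array weights, a robust fit, these 12 arrays alone, features not averaged, and leaving out each array or pair.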

Additional observations from a re-analysis of the deposited data

Results flagged for a closer look

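The ocm ratio on 48 h replicate 5 was 0.687, against -0.005 to 0.191 on the other 5 arrays of 48 h. The gap to the nearest array was 0.717 of the group's range, over Dixon's 95% critical value. This was 1 of 50 groups tested, and chance alone flags about 1 in 20.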

How the results depend on the processing

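The 2 features higher at 48 h became 1 without the dye coefficient or with a robust fit, 8 with the replicate block, 6 without the partner block, and 0 with partners averaged or the 24 and 48 h arrays alone (580 and 657 at an unadjusted p under 0.05 in limma). The 0 features lower (390 at an unadjusted p under 0.05) became 7 with the replicate block and 4 without the partner block. With 1 array or pair left out, the counts ran from 0 to 7 higher and from 0 to 4 lower. The 172 features past the threshold at 24 h became 770 with the replicate block, 868 without the partner block, 0 with partners averaged, 76 with a robust fit and 114 with the 24 and 48 h arrays alone, and 0 to 220 with an array or pair left out. The 204 at 48 h became 128 over features measured on all arrays, 649 with the replicate block, 671 without the partner block, 58 with partners averaged, 95 with a robust fit and 110 with the 24 and 48 h arrays alone, and 47 to 352 with an array or pair left out. The fit with the replicate block had no partner block either. Both it and the fit without the partner block treat partner arrays as independent, and averaging leaves 12 values for 24 arrays. The causes of the other moves were not tested.

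Same-numbered 24 and 48 h arrays correlated at 0.088 to 0.429 in their deviations, 1 of 6 under 0.1, and 3 of 6 arrays correlated best with their own number. The numbers were therefore not taken as pairing the arrays, though these values leave some likeness between same-numbered arrays as a hint.

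Over the named genes, 697 of 728 values under alternatives kept their direction and side of the threshold, 15 lost the threshold, 14 gained it, and 2 reversed. Both were SPARC, at 0.05 without 24 h replicates 1 and 5 and 0.03 without 48 h replicates 2 and 5, in a range from -0.22 to 0.05 over left-out arrays and pairs. List medians moved by less than the spread of the arrays in 955 of 961 values, and the 6 others came from pairs left out (tracheal, cell cycle, competition, and tubulin and actin lists). The sign of the median held under every alternative for 13 of 31 lists, among them midgut (-1.03 to -0.32), fat body (0.06 to 0.36), nucleolar (0.05 to 0.11) and tubulin and actin (-0.32 to -0.17). It turned under 1 or more for the other 18, most of them near 0, and for the salivary gland (-0.55 to 0.21) and competition lists (-0.18 to 0.28). With 3 pairs against 3, an exact permutation test of a single value could not go below 0.1.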
